A study of Mus musculus with 44 samples.

Results

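The regions described here are stretches of open chromatin that lie away from gene starts and that lost accessibility when the mouse medulloblastoma cells labelled preGTS1 were given DOX. A region was taken when the nearer of the gene starts named for it lay over 1000 bases away, when its mean over the 4 preGTS1 libraries was at least 5 CPM (reads per M reads that the library has in the listed regions), and when its mean with DOX was at most 0.5 of its mean with DMSO. This gave 4936 regions, which is 17.9% of the 27535 distal regions that reached the CPM minimum, out of 75536 distal and 88981 listed regions. In the opposite direction, 4219 distal regions (15.3%) at least doubled, and 18380 (66.8%) lay between. The choice used the preGTS1 ATAC values, so those values are given as a description and no test is attached to them. For the record, limma called 3.96% of the distal regions at the minimum lower and 3.22% higher in that contrast, and nothing is read from it.

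The tumors come from mice that carry MYCN, the oncogene amplified or overexpressed in aggressive medulloblastoma. In GTML mice the transgene is under a tetracycline-controlled promoter driven from Glt1 (Slc1a2), a glutamate transporter of glia, and in the related GTS model it is driven from Sox9, a transcription factor of glial and stem-like cells. In GTML mice DOX (doxycycline) switches the transgene off, and DMSO was the control. RNA assigned to Mycn fell with DOX in both GTML3 and preGTS1, as given below. The titles of GTS_1 and GTS_2 name neither DOX nor DMSO, and the effect of DOX in the GTS model was not examined. ATAC-seq, in which a transposase cuts open chromatin, covered GTML_3 and preGTS1 with DMSO or DOX and the sources labelled GTS_1 and GTS_2, with 2 libraries each. It also covered GTML tumor samples titled GFP and NoneGFP, with 2 libraries each, and these titles do not say what GFP marks. RNA-seq covered GTML3 and preGTS1 with DMSO or DOX, with 3 samples each, and bulk tumors, 8 of GTML and 6 of GTS. The labels describe all samples as tumor, give no age, dose or time, do not say what preGTS1 stands for or which promoter drives its transgene, and leave unsaid whether replicates are separate cultures or animals. A p-value below therefore sets a difference against the spread of libraries that may be only technical repeats. GTML3 and preGTS1 are called lines below for short. In such bulk samples, fewer cells of a type and less signal per cell cannot be told apart.

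Distal open regions are where transcription factors bind away from the start of the gene, and many of them act as enhancers, which can lie far from the gene they control and can skip the nearest one. MYC family proteins bind mainly at open promoters and at active enhancers, with a preference for the E-box CACGTG, and drive growth genes such as those of ribosome and nucleotide synthesis. When MYCN is withdrawn from a tumor of the neural lineage, cells commonly leave the cell cycle and turn on neuronal genes. The gene named beside a region below is the one with the nearest start in the deposited table, and it has not been shown to be the gene that the region acts on.

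RNA assigned to Mycn was the check of the treatment. In preGTS1 it was 10.54, 10.45 and 10.91 log2 CPM with DMSO and 5.54, 6.13 and 5.65 with DOX, and in GTML3 it was 8.69, 8.48 and 8.42 with DMSO and 4.93, 5.07 and 4.80 with DOX. The groups did not overlap in either line, and the fall was by 4.86 (adjusted p 2.22e-12, limma) in preGTS1 and by 3.59 (adjusted p 6.72e-11) in GTML3 on the log2 scale. Depth was 10.861 to 24.672 M reads per RNA library, and 5.848 to 7.773 M reads in the listed regions per preGTS1 ATAC library. The other ATAC libraries were shallower, with 1.671 to 1.748 M reads for GTML_3 with DMSO, 0.827 to 0.969 M with DOX, 2.085 to 3.997 M for GTS_1 and 1.185 to 1.658 M for GTS_2. Of the marker lists, neural progenitor and neuron genes were present in both lines, and none of the 5 microglia markers was listed in the RNA table. The 3 listed of 5 Group 3 markers summed to 640 to 658 CPM in GTML3 with DMSO and 148 to 151 CPM in preGTS1 with DMSO. For the 2 listed of 4 granule neuron progenitor markers the sums were 6.05 to 6.99 CPM and 77.3 to 85.4 CPM. Of the 4 mural and fibroblast markers 2 were listed (Pdgfrb, Col3a1). These summed to 113 to 160 CPM in preGTS1 with DMSO and 259 to 270 CPM with DOX, against at most 0.135 CPM in any GTML3 sample. Of the 3 endothelial markers 2 were listed (Pecam1, Kdr). These summed to 3.82 to 5.41 CPM with DMSO and 59.8 to 65.6 CPM with DOX in preGTS1. In GTML3 the sums were 2.07 to 2.43 CPM and 4.81 to 8.27 CPM. The part of such cell types in the results on preGTS1 was not tested.

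The lost regions stood higher before treatment than all distal regions at the minimum, and the rule itself sets this in part. A region that reaches the CPM minimum and falls to 0.5 or less must start above that minimum. The lowest DMSO mean was 6.717 CPM among lost regions and 0.4052 CPM among all distal regions at the minimum. Nothing is therefore read from the higher DMSO level of the lost regions. Their median level in preGTS1 was 14.9 CPM in each DMSO library and 5.32 and 5.30 CPM in the DOX libraries, while all distal regions at the minimum stood at 10.4 CPM and at 10.0 and 10.1 CPM. They held 10.99% and 10.92% of the reads in the DMSO libraries and 3.92% in each DOX library. Their median width was 690 bases, the same as that of the distal regions that neither halved nor doubled. The median ratio of DOX to DMSO was 0.375, the lowest was 0.051, and 10% of the regions were under 0.228. At the edge of the rule, the members near Mir7034, Pla2g4a and Erbb4 had ratios that rounded to 0.5, with 6.80 and 7.33 CPM falling to 3.65 and 3.42 CPM near Mir7034, and so did the regions just outside it near 4930503O07Rik and Gm20755.

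**Figure D1:**
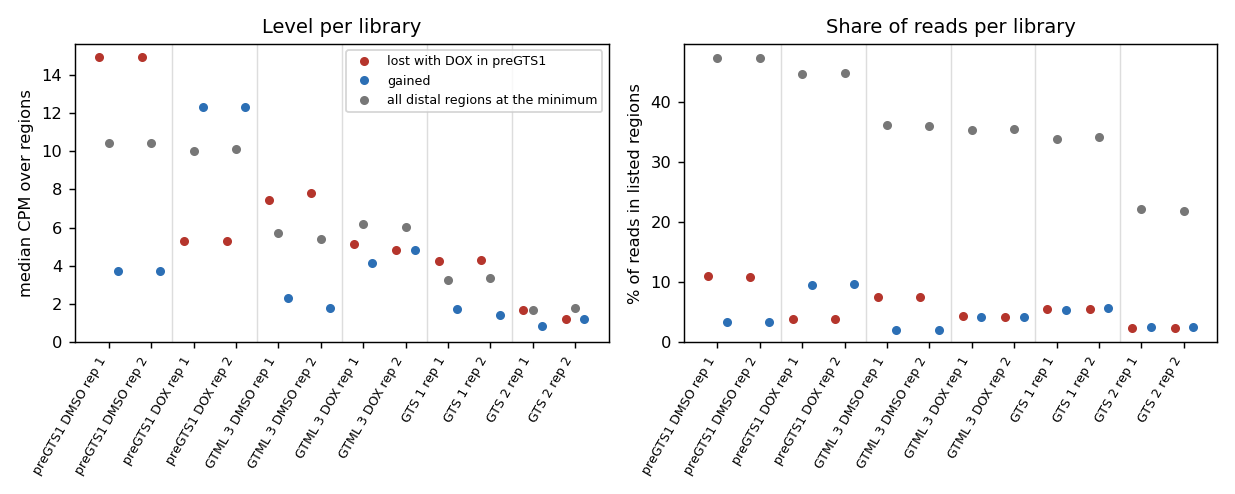
Median CPM over regions (left) and percent of the reads in listed regions (right) for each ATAC library, for the regions lost with DOX in preGTS1, the gained distal regions and all distal regions at the CPM minimum. Each point is 1 library. The preGTS1 libraries chose the regions. In GTML_3, which did not, the lost regions go from 7.44 and 7.78 CPM with DMSO to 5.16 and 4.83 CPM with DOX.

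Loss was more frequent far from genes. Of distal regions 1000 to 5000 bases from a start, 13.7% were lost, and of those over 500000 bases away 23.7% were lost, with a steady rise in between, while the gained share went from 10.6% to 19.0%. The median distance was 46940 bases for lost regions and 34790 bases for all distal regions at the minimum. By chromosome the lost share ran from 13.2% on chromosome 8 to 23.8% on chromosome 10.

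Lost regions were also bunched along the genome. In 448 windows of 5 Mb with at least 20 distal regions the median share lost was 15.6%, and 20 windows were above 40%. The highest was chromosome 10 between 110 and 115 Mb, where 37 of 55 distal regions (67.3%) were lost and 1.8% gained. The 18 promoters there were lower too, with a median log2 ratio of -0.87 in preGTS1 and -0.42 in GTML_3. In all 20 windows above 40% the promoter median in preGTS1 was below 0, as it was in 252 of the 448 windows. The next window down on that chromosome, 105 to 110 Mb, had 34 of 66 regions lost (51.5%) and a promoter median of -0.65, and it holds the lost regions near Syt1 and Nav3 named further on. The cause of the bunching was not tested.

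Most of the lost regions with the highest level in preGTS1 with DMSO were wide. The regions of lowest ratio named further on were not, with widths of 465 to 771 bases. For most of the wide ones the span of the neighbouring genes held genes for small nuclear RNAs (snRNAs), the short RNAs of the spliceosome. The width of over 2000 bases, which 18 lost regions had, was chosen after the values were seen. Together the wide regions held 3.81% of the reads of all lost regions in preGTS1 DMSO library 1. For 17 of them both neighbouring genes could be placed in the RefSeq annotation (GRCm38.p6). In 13 of these (76.5%) a snRNA gene lay in the span of the neighbours. That span takes in the bodies of both genes as well as the space between them. No snRNA gene was placed against the region itself. The share was 13.2% for the other lost regions, 16.3% for 43 distal regions of that width that were not lost, and 10.9% for all distal regions that could be placed. The snRNA genes there included Rnu2-10 of the U2 family in the span of Rdm1 and Arl4d. Rnu5g of the U5 family lay in the span of Igdcc3 and Parp16.

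The highest of all lost regions lay at chr1:173430117-173434332 (mm9), 1384 bases from the start of Alyref2, in an interval with a 116-base snRNA gene. It stood at 714 and 665 CPM in preGTS1 with DMSO and at 146 and 154 CPM with DOX. In GTML_3 it stood at 990 and 945 CPM with DMSO and at 331 and 360 CPM with DOX, which do not overlap, a log2 difference of -1.48 (SE 0.063, adjusted p 9.91e-10, limma). GTS_1 had 243 and 248 CPM there, and GTS_2 had 291 and 300 CPM. Both GTS sources stood below both DMSO and DOX levels of GTML_3.

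The 3 neighbouring regions between Mreg and Pecr on chromosome 1 were lower together. The region at chr1:72301107-72304439 held 478 and 498 CPM in preGTS1 with DMSO and 97.9 and 112 CPM with DOX, the one at chr1:72272302-72274960 held 401 and 373 CPM against 58.4 and 53.4 CPM, and the one at chr1:72282778-72285418 held 246 and 247 CPM against 56.8 and 58.3 CPM. In the annotation the span of Mreg and D230017M19Rik holds 4 snRNA genes of 191 bases. Of these, 2 are counted again in the span of D230017M19Rik and Pecr, since both spans take in D230017M19Rik. In GTML_3 the same regions fell by 1.97, 1.67 and 1.96 on the log2 scale (adjusted p 4.88e-09, 7.91e-08 and 4.88e-09, limma).

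Of the 18 wide regions, 17 were below 0 in GTML_3 with DOX, 15 were called lower by limma and 15 by edgeR, and the median log2 difference was -1.38. The regions near Kcnj3, Adgrl2 and G530011O06Rik were the 3 not called by limma. Over all distal regions at the minimum limma called 3.23% lower and edgeR 6.51%. Near Hhat (chr1:194571423-194574163) GTML_3 fell by 2.25 on the log2 scale to 116 and 84.6 CPM with DOX (adjusted p 5e-08, limma), and GTS_1 had 26.3 and 25.4 CPM. Near Trappc6b (chr12:60140727-60143646) GTML_3 went from 382 and 391 CPM to 92.9 and 65.3 CPM, and GTS_1 had 8.51 and 9.59 CPM against 98.7 and 132 CPM in GTS_2. Against GTML_3 with DMSO, 16 of the 18 were lower in GTS_1 and 2 higher, and 15 were lower in GTS_2 and 2 higher (limma). Of all distal regions at the minimum 25.7% were lower and 12.8% higher in GTS_1, and 41.4% and 6.91% in GTS_2. The wide regions were picked after their values were seen, and the high level of most of them makes a call easier. The regions near Kcnj3 and Vcan were the 2 that were higher in both GTS sources. Near Kcnj3 the level was 5.72 and 4.19 CPM in GTML_3 with DMSO and 125 and 106 CPM in GTS_2, and near Vcan, a matrix proteoglycan, it was 41.8 and 48.5 CPM and 81.8 and 65.2 CPM (adjusted p 0.0417, limma).

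**Figure D2:**
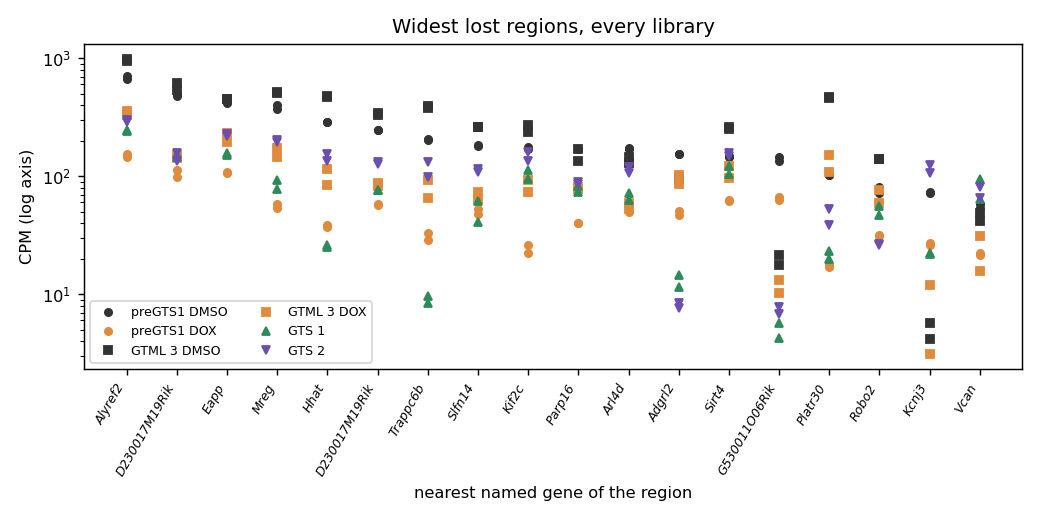
CPM (log axis) of the 18 lost regions wider than 2000 bases in each ATAC library, ordered by their level in preGTS1 with DMSO and labelled by the nearest named gene. Each symbol is 1 library. With DOX 17 of the 18 stand lower in GTML_3 as well, and the one near Kcnj3 is the exception.

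RNA of the snRNA genes in the spans of the wide regions' neighbours was higher with DOX in preGTS1. Of 27 such genes 23 had a value in the RNA table, and 18 of these rose in preGTS1 and 0 fell (limma), beside 34.5% and 33.7% of all genes, with a median log2 difference of 1.5. In GTML3 4 rose and 2 fell, with a median of 0.45. Reads assigned to Rnu2-10 were 7.0, 6.82 and 7.75 log2 CPM in preGTS1 with DMSO and 8.42, 8.63 and 9.32 with DOX, which do not overlap, a rise of 1.60 (adjusted p 0.00255), and the difference in GTML3 was 0.27 (adjusted p 0.528). Rnu5g rose by 2.07 in preGTS1 (adjusted p 0.00189), from 3.72, 4.48 and 5.59 to 6.56, 6.44 and 6.99, and by 1.21 in GTML3 (adjusted p 0.0311). The lowest difference among them was that of Gm25360, -0.73 in preGTS1 (adjusted p 0.0791), and it fell by 0.90 in GTML3 (adjusted p 0.0381). These genes were looked up after the regions were seen. They exist in near-identical copies, so the reads may be split among copies, and how the library method captures such short RNAs is not given in the sources used here.

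GTML_3 was the independent line for open chromatin, since the rule did not use it. Of all 88981 regions, 2.02% were called lower and 1.89% higher with DOX in GTML_3 (limma, adjusted p under 0.05), and of the 27535 distal regions at the minimum 3.23% were lower and 3.20% higher. Among the 4936 regions lost in preGTS1, 522 (10.6%) were lower and 18 (0.365%) higher, with a median log2 difference of -0.66 against 0.00 over all distal regions at the minimum. The gained regions showed the reverse, with 7 lower (0.166%), 423 higher (10.0%) and a median of 0.77. The test compares libraries, not conditions: the reads of the paired ATAC libraries differed by a chi-square per degree of freedom of 1.85 to 2.06 in every pair, where independent reads give about 1.

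These counts moved with the tool and the library. edgeR's quasi-likelihood test on the recovered reads called 943 lost regions lower and 4 higher, beside 6.51% and 1.70% of all distal regions at the minimum, and shifted the median of all regions by -0.22. On simulated data limma made 36 false calls in the 27535 distal regions beside 95 true ones of 111, and edgeR 2 false calls beside 80 true ones. Leaving out a library leaves that arm with 1, which the fit assumes to vary like the other groups. Without DMSO library 1 of GTML_3 limma called 96 lost regions lower and 6 higher, beside 0.603% and 1.25% of all distal regions at the minimum, and without DMSO library 2 it called 88 and 5, beside 0.559% and 0.908%. Without DOX library 1 it called 873 and 56, beside 7.75% and 5.26%, and without DOX library 2 it called 734 and 41, beside 5.73% and 4.25%. The median over the lost regions stayed between -0.68 and -0.62 in these fits.

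The size of the fall in GTML_3 went with the size of the loss in preGTS1. Lost regions with a preGTS1 ratio up to 0.2 had a median of -1.02 in GTML_3 and 22.5% were called lower, and those with a ratio over 0.4 had -0.53 and 6.69%. Distal regions just past the rule, with ratios over 0.5 and up to 0.6, had -0.35 and 4.66%. The edge of the rule is therefore no break in the GTML_3 response.

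**Figure D3:**
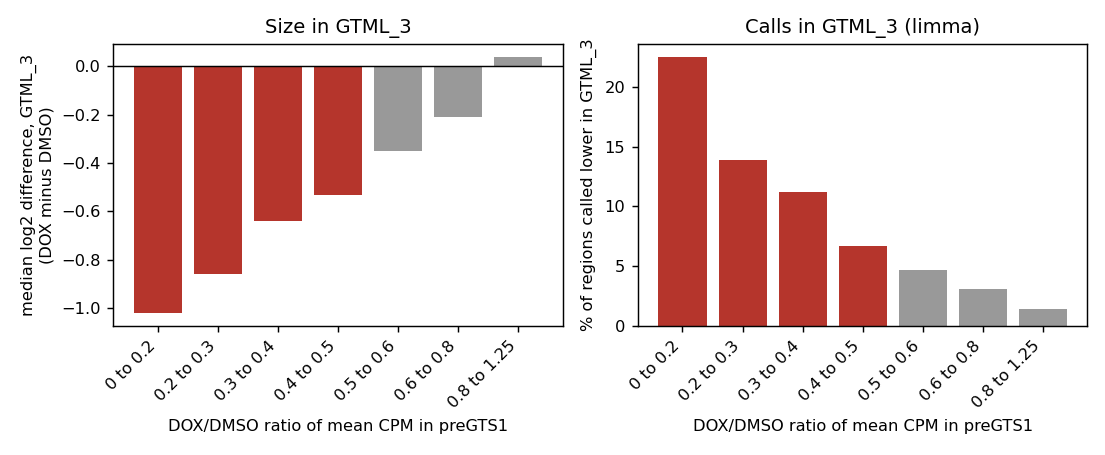
Response of distal regions in GTML_3, grouped by their DOX/DMSO ratio in preGTS1: the median log2 difference, DOX minus DMSO (left), and the percent called lower by limma (right). Red bars are lost regions, grey bars are distal regions past the rule. The median goes from -1.02 at ratios up to 0.2 to 0.04 in the class around an unchanged level.

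By size, the 4 deepest called falls in GTML_3 lay near Hsd17b13, Auts2, Cep112 and Ntrk3. At chr5:104382205-104383055 near Hsd17b13, a lipid droplet enzyme, GTML_3 had 14.3 and 18.0 CPM with DMSO and 0 reads in both DOX libraries, which together allow up to 1.67 CPM (adjusted p 0.00261, limma, and 1.53e-06, edgeR). Near Ntrk3, the neurotrophin-3 receptor, a region at chr7:85230834-85231827 had 24.6 and 37.7 CPM with DMSO and 0 and 7.25 CPM with DOX. The largest rises among the 18 called higher were small in reads. The highest, at chr9:85294258-85295125 near Tent5a, a poly(A) polymerase, had 0 reads in both DMSO libraries and 7.23 and 2.42 CPM with DOX.

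Among the lowest preGTS1 ratios were those of regions near Kcna5, Irs1, Kirrel3, Nnt, Pwwp2b, Commd8 and 6530403H02Rik. At chr1:82258850-82259315, 28932 bases from Irs1, which encodes the adaptor of insulin and IGF1 receptors, preGTS1 went from 13.3 and 10.8 CPM to 0.456 and 1.03 CPM. In GTML_3 that region went from 6.29 and 6.58 CPM to 0 reads in both libraries (adjusted p 0.0100, limma), and GTS_1 stood higher than either line at 27.8 and 26.4 CPM. The regions near the other 6 of these genes did not pass limma's threshold in GTML_3, with adjusted p-values of 0.0927 to 0.472.

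GTS_1 and GTS_2 were compared with GTML_3 under DMSO. These comparisons share the GTML_3 DMSO libraries with each other and with the GTML_3 response above. In GTS_1 15.1% of all regions and 25.7% of distal regions at the minimum were lower, and 16.7% and 12.8% were higher (limma). Of the lost regions 1688 (34.2%) were lower and 823 (16.7%) higher, with a median of -0.57 against -0.34 for all distal regions at the minimum. edgeR called 1758 lower and 1088 higher, beside 25.8% and 17.6% of all distal regions at the minimum. Lost regions also stood higher in GTML_3 with DMSO, at a median of 7.68 CPM against 5.51 CPM for those distal regions. Among regions at 5 CPM or more there, GTS_1 was at most 0.5 of GTML_3 in 62.0% of lost regions. That share was 65.9% of gained and 53.3% of all distal regions. GTS_1 was at least 2 times GTML_3 in 10.3%, 5.46% and 9.78%.

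In GTS_2 22.1% of all regions and 41.4% of distal regions at the minimum were lower, and 17.2% and 6.91% were higher (limma). Of the lost regions 2827 (57.3%) were lower and 259 (5.25%) higher, with a median of -1.67 against -0.95. edgeR called 2626 lower and 284 higher, beside 36.4% and 7.41%. Among regions at 5 CPM or more in GTML_3 with DMSO, GTS_2 was at most 0.5 of GTML_3 in 84.9% of lost regions. That share was 72.7% of gained and 69.0% of all distal regions at the minimum. GTS_2 was at least 2 times GTML_3 in 3.34%, 4.87% and 4.92%. In GTS_2 574 lost regions (11.6%) had 0 reads in both libraries, which allows up to 1.06 CPM, beside 10.9% of all distal regions at the minimum, so part of the low end was not detectable at this depth.

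Part of the lost set was open in the GTS sources. In GTS_1 2226 lost regions (45.1%) were at 5 CPM or more, beside 38.5% of all distal regions at the minimum, and in GTS_2 830 (16.8%), beside 23.4%. For the gained regions the shares were 8.41% in GTS_1 and 6.94% in GTS_2. Lost and gained regions reached the CPM minimum in different ways, the lost mainly through DMSO and the gained mainly through DOX libraries. Their median levels in preGTS1 with DMSO were 14.9 and 3.659 CPM. Their shares at 5 CPM are therefore not compared with each other. The lost regions held 5.53% and 5.49% of the reads in GTS_1 and 2.39% and 2.4% in GTS_2, against 7.58% and 7.53% in GTML_3 with DMSO.

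Single regions differed widely between the sources. At chr8:91101494-91103096 near Nkd1, an inhibitor of Wnt signalling, GTS_1 had 126 and 144 CPM, while GTML_3 with DMSO had 2.29 and 0.599 CPM and GTS_2 had 3.37 and 3.02 CPM (GTS_1 against GTML_3, log2 difference 5.89, adjusted p 5.81e-08, limma). At chr2:90399871-90401198 near Ptprj, a receptor tyrosine phosphatase, GTS_2 had 127 and 143 CPM and GTML_3 with DMSO had 2.29 and 0.599 CPM (log2 difference 5.89, adjusted p 4.55e-07). In the other direction, a region at chr17:50026177-50027467 near Kif6 had 117 and 135 CPM in GTML_3 with DMSO, 5.25 and 2.88 CPM in GTS_1, and 0 and 0.603 CPM in GTS_2. At chr3:9173512-9174846 near Zbtb10 the sources parted, with 123 and 98.8 CPM in GTS_1 and 0 reads in both GTS_2 libraries.

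The GTML tumor samples labelled GFP and NoneGFP differed little over the lost regions. A region of their table overlapped 1410 of the lost regions (28.6%), against 35.3% of all distal regions at the minimum. Over the 1402 overlapping regions the median level was 6.36 and 6.24 CPM in GFP and 6.19 and 5.99 CPM in NoneGFP. Of all regions there 1.13% were lower and 2.32% higher in GFP (limma), of those that overlap any distal region at the minimum 1.28% and 2.12%, and of those that overlap a lost region 21 (1.5%) were lower and 40 (2.85%) higher. With 1 library left out these counts ran from 2 to 24 lower and from 15 to 34 higher. With NoneGFP library 1 left out it was 2 and 15, with NoneGFP library 2 left out 5 and 25, and with GFP library 1 left out 8 and 16.

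RNA of the nearest genes rose more often than it fell. The lost regions named 2876 genes, 1842 of which had a value in the RNA table, and for 3280 of the regions the nearest gene was one of these. Of all 15926 genes 33.7% were lower and 34.5% higher with DOX in preGTS1 (limma), and of the 6298 genes nearest to any distal region at the minimum 31.2% were lower and 42.0% higher. Of the 1842 genes 488 (26.5%) were lower and 893 (48.5%) higher, with a median log2 difference of 0.34 against 0.16 for the genes nearest to any distal region and 0.04 for all genes. Of these genes 576 were also nearest to a gained region. The 1266 that were not had 28.7% lower and 45.4% higher, with a median of 0.24. For genes nearest to a gained region and to no lost one, 34.0% were lower and 39.9% higher, with a median of 0.10.

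The share that rose climbed with the number of lost regions. Of the 1165 genes with 1 lost region 44.2% were higher and 30.0% lower, and of the 101 genes with at least 5 lost regions 70 (69.3%) were higher and 12 (11.9%) lower, with a median of 0.91. Genes with many distal regions rose often in any case. Among genes with at least 10 distal regions, those with at most 1 lost region (78 genes) were higher in 59.0% and lower in 24.4%, and those with at least 5 (76 genes) were higher in 57 and lower in 7 (9.21%).

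In GTML3, 31.4% of all genes were lower and 34.5% higher with DOX (limma). Of the genes nearest to a lost region 560 (30.4%) were lower and 745 (40.4%) higher, with a median of 0.13, beside 29.4% lower, 41.3% higher and a median of 0.15 for genes nearest to any distal region. The difference between the responses of the lines was tested gene by gene. It was lower in preGTS1 for 417 genes (22.6%, against 25.1% of all genes) and higher for 587 (31.9%, against 17.1% of all genes and 23.0% of genes nearest to any distal region).

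**Figure D4:**
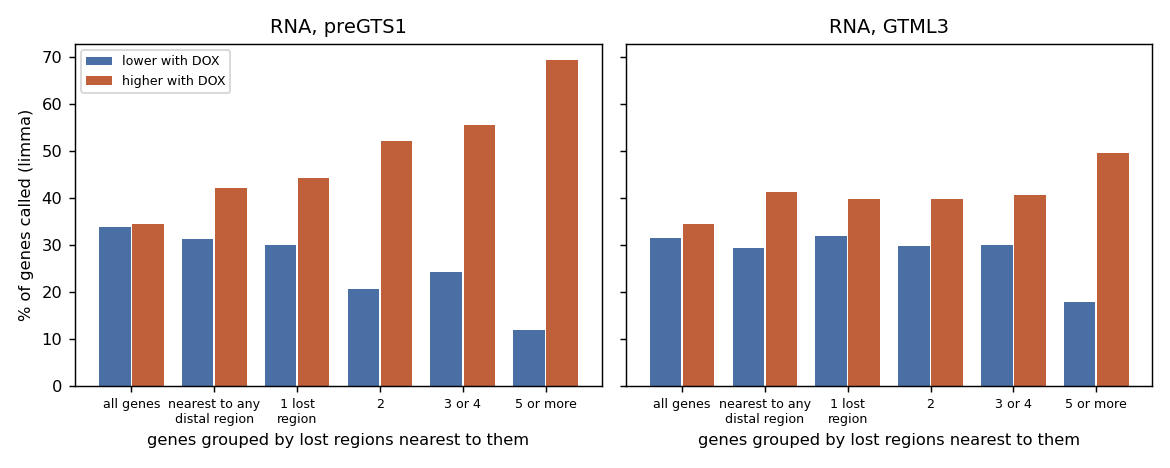
Percent of genes called lower or higher with DOX by limma in preGTS1 (left) and GTML3 (right), for all genes, genes nearest to any distal region at the CPM minimum, and genes grouped by how many lost regions are nearest to them. In preGTS1 the higher share goes from 44.2% of genes with 1 lost region to 69.3% of genes with 5 or more.

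The 10 genes with the most lost regions were E130114P18Rik (15 of its 27 distal regions), Hmga2-ps1 (13 of 22), 5430427M07Rik (11 of 15), Chd6 (11 of 22), Ptprd (11 of 27), Mir6402 (10 of 18), Setbp1 (10 of 17), Tcf4 (10 of 19), Tns3 (10 of 28) and Zfp608 (10 of 35). Hmga2-ps1, 5430427M07Rik and Mir6402 had no value in the RNA table. Around Ptprd, a synaptic adhesion phosphatase, the 11 regions summed to 412 CPM with DMSO and 131 CPM with DOX in preGTS1, while its RNA went from 6.25, 6.26 and 5.98 to 8.29, 8.05 and 8.30 log2 CPM. The RNA groups did not overlap, and the rise was 2.05 (SE 0.106, adjusted p 9.56e-11, limma). In GTML3 Ptprd RNA fell by 0.45 (adjusted p 0.00157), so the responses differed by 2.50 (adjusted p 9.33e-09).

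Tcf4, a partner of proneural bHLH factors, had 10 lost regions, with 236 CPM against 81.9 CPM in sum. Its RNA was 7.91, 7.91 and 7.76 with DMSO and 8.79, 8.78 and 8.85 with DOX in preGTS1, a rise of 0.95 (adjusted p 1.24e-08), and it fell by 0.64 (adjusted p 1.5e-06) in GTML3. Zfp608, a zinc finger gene, rose in both lines, by 1.79 in preGTS1 (adjusted p 1.77e-10) and 0.79 in GTML3 (adjusted p 3.03e-06). Setbp1, which binds the SET protein, rose by 0.95 in preGTS1 (adjusted p 2.73e-07), and E130114P18Rik, rose by 1.95 (adjusted p 0.00594).

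Tns3, a focal adhesion protein, was the one of these genes whose RNA fell with its regions. Its 10 regions summed to 275 CPM with DMSO and 89.7 CPM with DOX in preGTS1, and its RNA went from 6.45, 6.26 and 6.18 to 4.95, 4.93 and 5.07 log2 CPM. The groups did not overlap, and the fall was by 1.31 (adjusted p 1.94e-08, limma). In GTML3 the RNA difference was 0.04 (adjusted p 0.789). The Tns3 regions summed to 159 CPM in GTS_1 and 6.87 CPM in GTS_2. Chd6, a chromatin remodeller, had 7.34, 7.26 and 7.13 against 7.36, 7.14 and 7.33 log2 CPM in preGTS1, which overlap (adjusted p 0.736).

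**Figure D5:**
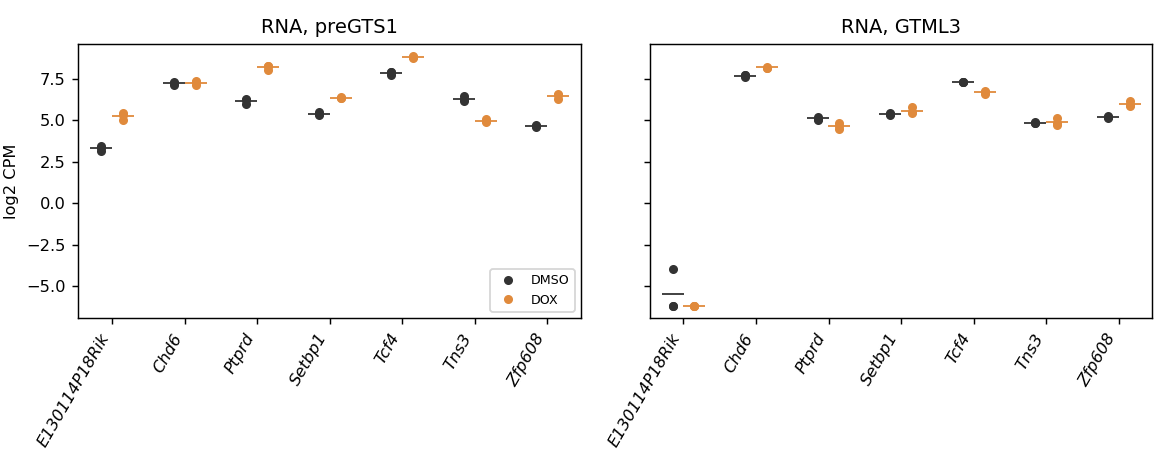
RNA (log2 CPM) in every sample for the 7 genes with an RNA value among the 10 genes with the most lost regions, in preGTS1 (left) and GTML3 (right). Points are samples and dashes are means of 3. In preGTS1 the DOX samples of E130114P18Rik, Ptprd, Setbp1, Tcf4 and Zfp608 lie above the DMSO samples, those of Tns3 lie below, and those of Chd6 overlap. In GTML3, E130114P18Rik lies at or near -6.16, the value of 0 reads.

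The 8 largest RNA falls among genes nearest to a lost region were led by Mycn and included mitotic and replication genes. RNA assigned to Mycn was the check of the treatment, so nothing is read from its fall about the region near it. After Mycn came Depdc1a, a mitotic gene, Guca1a, a photoreceptor calcium sensor, Mns1, a ciliary protein, Mcm10, a DNA replication factor, Kif2c, a mitotic kinesin, Rrm2, a subunit of ribonucleotide reductase, and H2bc11, a replication histone. Kif2c went from 7.80, 7.78 and 7.77 to 4.22, 3.59 and 4.03 log2 CPM in preGTS1 (adjusted p 9.72e-13, limma) and fell by 2.80 in GTML3. Of the 3 lost regions near Kif2c, 1 is the wide region at chr4:116862081-116864894, which lies in an interval with 3 snRNA genes and went from 169 and 178 CPM to 22.3 and 26.0 CPM. Guca1a fell in preGTS1, from -0.11, -0.16 and -0.63 to -3.85, -2.86 and -6.16, on 52 and 3 reads, but rose by 2.04 in GTML3 (adjusted p 0.00918), and -6.16 stands for 0 reads.

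Of the 8 largest rises, 4 were of genes with few reads before treatment. Cntn2, an axonal adhesion molecule, had 12 reads in all with DMSO and 307 with DOX in preGTS1, Sync, a filament protein, 1 and 61, Syndig1l, a synaptic membrane protein, 9 and 188, and Gm16701, a noncoding gene, 5 and 122. All 4 passed the test (adjusted p 9.83e-07 to 0.000212, limma). Chgb, a protein of secretory granules, went from 2.87, 2.44 and 2.52 to 7.25, 7.22 and 7.30 log2 CPM (rise of 4.64, adjusted p 7.09e-14) while both of its lost regions went from 63.3 CPM to 14.8 CPM in sum. Its promoter region went from 51.1 to 81.5 CPM. Stx3, a syntaxin of synapses, rose by 4.63, Mylk2, a myosin kinase, by 4.75 and Tmem163, by 4.77 (adjusted p 1.78e-11, 2.85e-09 and 8.88e-10).

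The gene lists below were drawn up with earlier results of these data known. Beside every list stand the shares over all features. Of all distal regions at the minimum 17.9% were lost, and of all genes 34.5% were higher and 33.7% lower in preGTS1 RNA (limma). Counts over all measured genes of a list show how far a rise belongs to the list with or without lost regions. Of the 32 genes of neuronal differentiation and synapse, 26 had a distal region at the minimum and 16 a lost one, and 54 of their 205 distal regions (26.3%) were lost. RNA of 14 of the 15 measured genes with a lost region rose in preGTS1 and none fell, with a median of 1.71. In GTML3 12 of these genes rose, while 34.5% of all genes were higher there. Over the 30 measured genes of the list, with or without a lost region, 26 rose and 1 fell in preGTS1, with a median of 2.03. Syt1, the calcium sensor of synaptic release, had 8 lost regions that went from 148 CPM to 42.7 CPM in sum, while its RNA went from 2.62, 2.52 and 2.90 to 4.89, 4.70 and 4.95 (adjusted p 8.93e-10, limma). Celf4, a neuronal RNA-binding protein, rose by 1.40 with 9 lost regions, and Nrcam, a neural adhesion molecule, by 2.41 with 3.

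Of the 35 genes of axon guidance and adhesion 19 had a lost region, 70 of their 250 distal regions (28.0%) were lost, and RNA of 16 of the 19 rose in preGTS1 and none fell, with a median of 2.07. Over the 33 measured genes of that list 25 rose and none fell, with a median of 1.52. Robo1, a Slit receptor, rose from 6.08, 5.84 and 5.95 to 7.5, 7.60 and 7.55 in preGTS1 (adjusted p 3.52e-10) with 8 lost regions, and fell by 0.61 in GTML3 (adjusted p 2.4e-05). Pcdh9, a protocadherin, rose by 2.81 (adjusted p 8.1e-05). Cdh4, R-cadherin, had 2.77, 2.2 and 2.35 against 2.63, 2.72 and 2.74 log2 CPM, which overlap (adjusted p 0.176).

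Among 34 proneural and neuronal transcription factors 14 had a lost region and 39 of 138 distal regions (28.3%) were lost. RNA of 11 of the 13 measured rose in preGTS1 and none fell, but in GTML3 8 fell and 3 rose. Over all genes 31.4% were lower and 34.5% higher in GTML3, and a count over the whole list was not made there. Of all 26 measured genes of the list 21 rose and none fell in preGTS1. Neurod4, a bHLH factor of neuronal differentiation, had 4 lost regions that went from 184 CPM to 62.1 CPM in sum in preGTS1 and from 77.2 to 77.1 CPM in GTML_3. Its RNA rose by 3.42 in preGTS1 (adjusted p 5.76e-13) and by 2.76 in GTML3 (adjusted p 7.27e-12). Neurod6, a relative active in postmitotic neurons, had 4.46, 4.19 and 4.14 against 5.12, 4.92 and 5.01 log2 CPM in preGTS1, which do not overlap but missed the threshold (adjusted p 0.344).

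Of the astroglial and SOX genes 9 of 26 had a lost region and 26 of 86 distal regions (30.2%) were lost, with 8 of the 9 higher in preGTS1 RNA, beside 17 higher and 1 lower of the 22 measured genes of the list. Slc1a2, which also drives the transgene of GTML mice, had 3 lost regions that went from 64.7 CPM to 19.6 CPM in sum. These held a small part of the distal signal nearest to it. The region at chr2:102497442-102499481 went from 2310 to 2640 CPM in preGTS1. Another, at chr2:102489284-102491502, went from 164 to 233 CPM. Slc1a2 RNA rose by 2.26 in preGTS1 (adjusted p 4.35e-11, limma) and 2.38 in GTML3 (adjusted p 3.43e-11). Sox11, a factor of immature neurons, rose by 0.61 with 8 lost regions, and Prom1 (CD133) by 0.71 with 2. Sox9 had no lost region, and its RNA rose by 2.13 in preGTS1 (adjusted p 2.65e-05).

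For granule neuron progenitor and SHH genes, 26 of 110 distal regions (23.6%) were lost, and RNA of 6 of 11 genes with a lost region rose and 1 fell, beside 11 and 2 of the 22 measured genes of the list. Etv1, an ETS factor, rose by 1.90 with 7 lost regions of 10, and its promoter region went from 169 to 87.6 CPM. Cdon, a SHH co-receptor, fell by 1.12 (adjusted p 3.13e-08). Of the Notch and Wnt genes 23 of 105 regions (21.9%) were lost, with 6 of 10 genes higher and 1 lower in RNA, beside 13 and 2 of the 23 measured. Dll1, a Notch ligand, lost all 5 of its distal regions, which went from 131 CPM to 34.9 CPM in sum, and its promoter region went from 83.0 to 30.8 CPM, while its RNA rose by 0.69 (adjusted p 2.69e-05). Lef1, a Wnt effector, was the one that fell, by 1.63 in preGTS1 (adjusted p 3.95e-06), with 6 lost regions, and it rose by 0.54 in GTML3 (adjusted p 0.0329).

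Growth factor genes lost 32 of 107 regions (29.9%), and of the 11 measured genes with a lost region 7 rose and 2 fell, beside 18 and 2 of all 26 measured. Dusp4, a phosphatase that limits ERK signalling, went from 5.88, 5.68 and 5.77 to 8.98, 9.37 and 8.97 log2 CPM in preGTS1 (adjusted p 2.19e-13), while in GTML3 the difference was 0.18 (adjusted p 0.124), and the responses differed by 3.15 (adjusted p 4.35e-10). Irs1 rose by 0.85 with 5 of 7 regions lost. Ntrk3 had 4.53, 4.45 and 4.59 against 4.56, 4.60 and 4.37 log2 CPM, which overlap (adjusted p 0.967).

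The other lists had few distal regions at the minimum, so their shares rest on small counts, and none was tested against the rest. Of MYC target and ribosome biogenesis genes, 1 of 20 distal regions (5.0%) was lost, near Ccnd2, although RNA of 30 of 31 measured genes fell in preGTS1. Of cell cycle genes 5 of 47 (10.6%) were lost, near Ccnd2, Cdk1, E2f1, E2f2 and E2f3, and RNA of 27 of the 35 genes fell in preGTS1 and 4 rose. Cdk1, the mitotic kinase, fell by 3.47 (adjusted p 1.09e-12), E2f2 by 3.26 and E2f3 by 1.33, whereas Ccnd2, a G1 cyclin, rose by 0.83 (adjusted p 2.94e-06) and fell by 0.87 in GTML3. Glycolysis and serine synthesis genes lost 5 of 43 regions (11.6%), and all 3 genes beside these, Slc16a1, Phgdh and Shmt2, fell in both lines, as 22 of the 23 measured genes of that list did in preGTS1. Matrix genes lost 2 of 26 (7.69%), near Col1a2 and Twist1, and photoreceptor and Group 3 genes 8 of 63 (12.7%), with Impg2 higher and Lmx1a lower in preGTS1 RNA. The share lost over all distal regions at the minimum was 17.9%.

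Promoter sequences of 4 of the named genes (Slc16a1, Irs1, Sema6d and Gm16701) hold the E-box CACGTG, a palindrome that reads the same on both strands, and those of the first 3 are shown because the RNA of these genes moved in different directions beside lost regions. They are from RefSeq (GRCm38.p6) and run from 250 bases before to 50 bases after the start, with the E-box in capitals. Slc16a1 (chr3:104638414-104638713, plus strand), the lactate transporter MCT1, fell by 2.61 in preGTS1 and its promoter region had 80.6 CPM with DMSO and 68.3 CPM with DOX. Irs1 (chr1:82291390-82291689, minus strand) rose, and its promoter region had 106 and 73.3 CPM. Sema6d (chr2:124089719-124090018, plus strand), a semaphorin of axon guidance, rose by 3.32.
Slc16a1: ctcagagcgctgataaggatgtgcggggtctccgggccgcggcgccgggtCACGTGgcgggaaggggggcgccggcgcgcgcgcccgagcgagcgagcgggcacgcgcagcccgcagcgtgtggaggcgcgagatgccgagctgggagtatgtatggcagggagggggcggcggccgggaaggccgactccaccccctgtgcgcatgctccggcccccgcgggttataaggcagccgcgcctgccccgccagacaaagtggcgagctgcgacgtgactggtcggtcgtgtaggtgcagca
Irs1: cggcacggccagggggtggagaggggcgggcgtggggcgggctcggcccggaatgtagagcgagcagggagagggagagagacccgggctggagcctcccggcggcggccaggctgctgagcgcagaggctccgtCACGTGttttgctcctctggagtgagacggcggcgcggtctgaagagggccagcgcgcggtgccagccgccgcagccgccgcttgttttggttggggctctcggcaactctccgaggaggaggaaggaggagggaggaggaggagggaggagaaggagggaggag
Sema6d: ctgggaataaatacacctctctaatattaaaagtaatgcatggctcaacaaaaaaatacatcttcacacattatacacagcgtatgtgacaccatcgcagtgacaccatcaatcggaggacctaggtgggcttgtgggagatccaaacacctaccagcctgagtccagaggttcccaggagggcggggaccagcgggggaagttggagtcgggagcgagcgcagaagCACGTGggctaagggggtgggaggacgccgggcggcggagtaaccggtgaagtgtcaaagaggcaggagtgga
Over 27025 promoters of that length, 1 a gene, 7.24% held CACGTG. The share was 7.98% for genes nearest to a lost region. Among these it was 14.1% (54 of 383) where RNA fell in preGTS1 and 5.87% (41 of 698) where RNA rose, beside 12.9% and 7.68% of the falling and rising genes nearest to any distal region at the minimum. A match describes the letters in this window and not a bound site. The distal regions themselves are in mm9 coordinates, and their sequence was not used here.

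The responses of the lines differed most, toward lower in preGTS1, for Guca1a, Cacna1g, Myoc, Lrrn4 and Lrguk. Cacna1g, a T-type calcium channel, had -1.09, -2.71 and -0.74 against -1.79, -1.63 and -2.35 in preGTS1, which overlap, and went from 0.26, 0.67 and -0.60 to 4.51, 4.5 and 4.45 in GTML3 (difference of responses -4.79, adjusted p 5.16e-05, limma). Toward higher in preGTS1 came Nav3, Sema6d, Mylk2, Sox1ot and Olfml2b. Nav3, a neuron navigator protein with 7 lost regions of 11, went from 2.45, 2.72 and 2.57 to 4.89, 4.69 and 4.69 in preGTS1 and from -0.37, 0.28 and 0.77 to -6.16, -2.57 and -3.89 in GTML3. Sema6d went from 4.31, 4.19 and 3.99 to 7.5, 7.45 and 7.51 in preGTS1, and in GTML3 it had 0 reads in every DOX sample and in 1 DMSO sample.

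Between 6 GTS and 8 GTML tumors no gene nearest to a lost region passed the test (0 lower and 0 higher of 2060, limma). The fit had the number in the column names as a term. That number was spread unevenly over the GTS and GTML tumors, which makes a difference between the tumor types harder to detect. The lack of calls therefore does not show that the tumor types are alike. Over all 15708 genes 0.00637% were lower and 0.0509% higher, and of genes nearest to any distal region 0.0% were lower and 0.111% higher. At an unadjusted p under 0.05, 222 of the 2060 (10.8%) were lower and 249 (12.1%) higher, beside 8.81% and 10.7% of all genes, and the median was -0.06 against -0.07 for all genes. Without that term 54 (2.62%) were lower and 99 (4.81%) higher after adjustment, beside 1.96% and 3.92% of all genes and 2.05% and 4.42% of genes nearest to any distal region. Etv1 had the widest gap among the named genes, with a log2 difference of 3.41 (adjusted p 0.0965).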

How the data were processed

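The ATAC tables were deposited by the authors as CPM (1 column per library, coordinates that fit mm9), and the RNA tables as log2 CPM. Per the submitters' processing notes, STAR 2.4.0, Bowtie2 2.2, Subread 1.5.2, MACS2, edgeR and limma were used on builds mm9 and mm10; which step each served is not given in the sources used here. The design had assumed CPM for RNA, so the deposited log2 values went into limma directly. In the tumor table the number in the column names (120 or 263) had no mean difference left, and it was kept as a term in the fit. It was spread unevenly over GTS and GTML tumors, so removing its mean difference can also remove part of a difference between them.

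The members, gene lists and rule for named genes were chosen with earlier results of these data known. The rule named the 10 genes with the most members, the 8 largest RNA falls and rises, the 5 largest differences between lines in each direction, up to 3 genes per list, and regions of highest level, lowest ratio, ratios nearest 0.5, and the 4 largest called differences in each direction. Wide regions and snRNA genes were added after their values were seen.

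limma 3.58.1 (R 4.3.3) was fitted to log2(CPM + 1) over all 88981 regions and to the deposited log2 CPM over 15926 genes, with Benjamini-Hochberg adjustment over the whole table and a threshold of 0.05. The pseudocount understates differences of low regions. edgeR 4.0.16 was the alternative, on whole reads recovered from the values (100% of values whole within 0.1 reads). On simulated ATAC counts limma recovered 170 of 200 changed regions with 104 false calls and edgeR 144 with 3. On simulated RNA limma recovered 200 of 200 with 4 false calls over 15836 genes. Both simulations used a set spread that was not fitted to the replicates, so their rates need not hold for the real data. Floors are 3 reads over both libraries of a group and, like the reads, cover counting error only. Of the ATAC lines, 1 that names no region was left out. Single-cell tables were not used here. Results for some items that the naming rule picked are not reported here.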

Additional observations from a re-analysis of the deposited data

Results flagged for a closer look

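In the 8 GTML tumors, Setbp1 RNA in the highest sample was 9.29 log2 CPM, while the median was 5.68 and the lowest 5.03, a gap to the nearest other sample above Dixon's 95% critical value. Chance flags about 1 in 20 groups, and 14 groups were examined.

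The response to DOX differed between preGTS1 and GTML3, by the limma test of the difference itself, for 10 named genes. On the log2 scale the difference, preGTS1 minus GTML3, was -6.03 for Guca1a, -4.79 for Cacna1g, -4.41 for Myoc, -4.37 for Lrrn4 and -4.34 for Lrguk. It was 6.61 for Nav3, 5.62 for Sema6d, 5.55 for Mylk2, 5.11 for Sox1ot and 5.08 for Olfml2b. Some of these genes had samples at 0 reads, where the size of a fitted difference depends on the prior count and is no bound.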

How the results depend on the processing

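Replicate numbers did not pair the samples: the deviations of same-numbered samples correlated between -0.154 and 0.068 for RNA and at most 0.005 for ATAC. With the replicate block, 10.2% of lost regions were lower in GTML_3, and 25.7% of nearest genes were lower and 47.6% higher in preGTS1, and the block moved no percentage by over 1.5 times. For the lost regions in GTML_3, the percent lower was 19.1 with edgeR, 7.03 with a pseudocount of 0.5 and 20.1 with 5, and ran from 1.78 to 17.7 with 1 library left out. The percent higher was 0.081 with edgeR, 0.628 with a pseudocount of 5 and 0.0608 where limma and edgeR both called, a setting chosen after seeing the data, and ran from 0.101 to 1.13 with 1 library left out. In the tumors, without a term for the number in the column names 2.62% of genes were lower and 4.81% higher, and after median centring 0.0485% were higher. For GFP against NoneGFP, leaving out 1 library, added after seeing the data, gave 0.143% to 1.71% lower and 1.07% to 2.43% higher. The GTS and treated-line RNA percentages stayed within 1.5 times their value under every alternative run.

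Signs turned for 2 named genes, and for 7 of the named regions in GTML_3. With 1 sample left out, Chd6 RNA in preGTS1 ran from -0.02 to 0.1 and Ntrk3 RNA from -0.05 to 0.06. With 1 library left out, the GTML_3 difference ran from -2.0 to 0.0 near Kcna5, -0.45 to 1.02 near Pla2g4a, -1.35 to 1.04 near Erbb4, -0.66 to 0.48 near Fahd2a, -1.2 to 1.43 near Ptprj, -0.53 to 1.15 near Kcnj3 and -0.16 to 0.09 near Adgrl2. Other settings gave -0.16 near Pla2g4a with edgeR, 0.02 near Erbb4 with a pseudocount of 5, -0.06 near Ptprj with 0.5, and 0.01 near Adgrl2 after median centring. The causes were not tested. The GTML_3 DOX libraries, at under 1 M reads, limit single regions most, since 0 reads in both allow 1.67 CPM.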
